A study of Mus musculus with 8 samples.

Results

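Glycogen is the branched glucose store of the liver. It is built from UDP-glucose by glycogen synthase and the branching enzyme, and taken apart by glycogen phosphorylase. Synthase and phosphorylase are switched by phosphorylation, and glycogen-targeting subunits bring protein phosphatase 1 to the particle, where it activates the synthase and inactivates the phosphorylase. Hepatocytes trap glucose for this pathway with glucokinase, which a regulatory protein, the product of Gckr, holds inactive in the nucleus when glucose is scarce.

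The 8 genes described here are Gys2, Ugp2, Gbe1, Pygl, Ppp1r3b, Ppp1r3c, Ppp1r3g and Gckr, chosen by name from the 55487 genes of the count table. All 8 passed the filter on low counts, which left 13312 genes for testing. Expression was measured by RNA sequencing of whole liver from male C57Bl/6J mice, an inbred strain, at about 10 weeks of age. In the sorbate group (4 libraries) the mice had received 17 mg of potassium sorbate, a food preservative, by gavage into the stomach. In the control group (4 libraries) they had received water, and both groups were sampled 4 hours later. Strain and sex were shared by both groups. The study is titled for lysine sorbylation, an acyl mark on proteins, and inflammation genes, and the labels give no feeding state, clock hour, cage or batch. Nothing in the labels says that each library is a separate mouse, so the p-values below measure only the spread between these libraries.

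Libraries held 15773932 to 25844731 counts. Levels are given in CPM, counts scaled to library size, with the libraries aligned by TMM (trimmed mean of M-values). Of the 6 hepatocyte markers examined (Alb, Apoa1, Ttr, Cps1, Hnf4a and Tat), 0 passed the test in either direction, and all were abundant in every library. With sorbate their levels summed to 72567 to 97057 CPM per library, against 63308 to 80831 CPM among controls. Control 2 stood apart from the other controls: it scored 15.4 on the first principal component (53.6% of the variance), where sorbate libraries scored 21.9 to 37.8 and controls 1, 3 and 4 scored −49.1 to −42.1. The 5 Kupffer cell markers summed to 116 to 228 CPM in the sorbate libraries, 160 CPM in control 2 and 299 to 397 CPM in the other controls. The 5 neutrophil markers summed to 0.229 to 1.16 CPM, 0.894 CPM and 11.5 to 20.7 CPM in the same order. Of the tested markers, 3 of 5 for Kupffer cells (Vsig4, Timd4 and Cd5l), 1 of 1 for neutrophils (S100a9), 1 of 4 for sinusoidal endothelium (Clec4g) and 1 of 3 for cholangiocytes (Sox9) were lower with sorbate, and 0 of 4 for stellate cells were called. The cholangiocyte markers differed in direction: Krt19 had a log2 fold change of 1.03 (edgeR adjusted p = 0.113) and Epcam 0.06, neither called. Krt7, too low to test, averaged 0.725 CPM with sorbate and 0.475 CPM in controls. Of the 4 pancreas markers Prss2 and Cpa1 were at 0 in every library, Pnliprp1 reached at most 0.0445 CPM with sorbate and 0.148 CPM in controls, and Cela1 had 22.5 to 32.5 CPM with sorbate and 11.1 to 36.9 CPM in controls, highest in control 2, and was not called. The 4 adipocyte markers were too low to test. The part of these other cells in the values below was not tested, and in whole tissue fewer cells of a type and less RNA per cell cannot be told apart. The 4 skeletal muscle markers, of a tissue with its own glycogen enzymes, summed to at most 0.0457 CPM in a sorbate library and 0.149 CPM in a control, and Ckm and Mb were at 0 in all 8 libraries.

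The start regions of a synthesis enzyme (Ugp2), the breakdown enzyme (Pygl) and a phosphatase-targeting subunit (Ppp1r3c) are shown because these genes stand for the 3 roles followed below. Each window runs from 250 bases before to 50 bases after an annotated start and is taken from RefSeq on GRCm38.p6. The windows of Pygl and Ppp1r3g lie wholly inside the gene intervals given below, so the outer starts of those intervals were not searched. Of the 8 genes 6 had such a window, and Ugp2 had 2, of which the upstream one is shown. Gys2 and Ppp1r3b had no window, so their start regions were not searched. Capitals mark matches, on either strand, to motifs bound by clock and cyclic AMP-responsive factors: the E-box CACGTG, the ROR core AGGTCA, the core TGACG of the cyclic AMP response element, and the D-box TTANGTAA. No match overlapped another.
Ugp2 (minus strand, chr11:21371218-21371517): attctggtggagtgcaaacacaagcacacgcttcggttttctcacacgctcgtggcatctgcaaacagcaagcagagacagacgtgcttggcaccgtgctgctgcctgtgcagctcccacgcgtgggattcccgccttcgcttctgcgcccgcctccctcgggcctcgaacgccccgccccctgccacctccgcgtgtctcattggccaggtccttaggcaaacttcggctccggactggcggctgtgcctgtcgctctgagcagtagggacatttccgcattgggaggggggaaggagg
Pygl (minus strand, chr12:70227634-70227933): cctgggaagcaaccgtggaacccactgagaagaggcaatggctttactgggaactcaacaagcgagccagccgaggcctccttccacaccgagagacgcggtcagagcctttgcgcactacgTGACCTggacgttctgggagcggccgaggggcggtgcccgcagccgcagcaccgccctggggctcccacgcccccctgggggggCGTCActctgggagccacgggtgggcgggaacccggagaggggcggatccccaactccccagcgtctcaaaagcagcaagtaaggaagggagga
Ppp1r3c (minus strand, chr19:36736555-36736854): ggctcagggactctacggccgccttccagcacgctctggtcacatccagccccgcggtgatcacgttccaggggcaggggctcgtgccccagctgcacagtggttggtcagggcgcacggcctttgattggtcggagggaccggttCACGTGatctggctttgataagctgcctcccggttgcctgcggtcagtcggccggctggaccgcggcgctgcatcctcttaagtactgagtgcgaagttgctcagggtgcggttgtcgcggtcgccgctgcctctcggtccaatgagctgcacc

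The E-box of Ppp1r3c begins 104 bases before the start, and Pygl holds a ROR core 128 bases and a core of the cyclic AMP response element 44 bases before it, both on the opposite strand. Ugp2 holds none of the 4 motifs in either window. The other window with a match was that of Ppp1r3g, with TGACG 40 bases before the start. Among 32851 windows of 300 bases, 7.15% held CACGTG, 16.3% AGGTCA, 20.8% TGACG and 2.32% TTANGTAA, against 1, 1, 2 and 0 of the 7 windows of these genes. A match describes letters only.

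Sorbate livers had more transcript of liver glycogen synthase, while the transcripts of phosphorylase, the branching enzyme and the glucokinase regulator had fold changes close to 1. Gys2 was 3.64-fold higher with sorbate. Ugp2, Ppp1r3g, Pygl, Gbe1, Gckr, Ppp1r3b and Ppp1r3c did not pass the test. The call on 1 of 8 genes (12.5%) stands beside 12.4% of all 13312 genes called in either direction and 6.14% called higher, so the share of all calls is close to the background (edgeR's quasi-likelihood test, Benjamini-Hochberg adjusted p below 0.05). The median log2 fold change was 0.07 over the 8 genes and −0.02 over all genes tested. The groups failed to overlap in 1 of the 8 genes, Gys2, and in 17.7% of all genes tested.

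**Figure D1:**
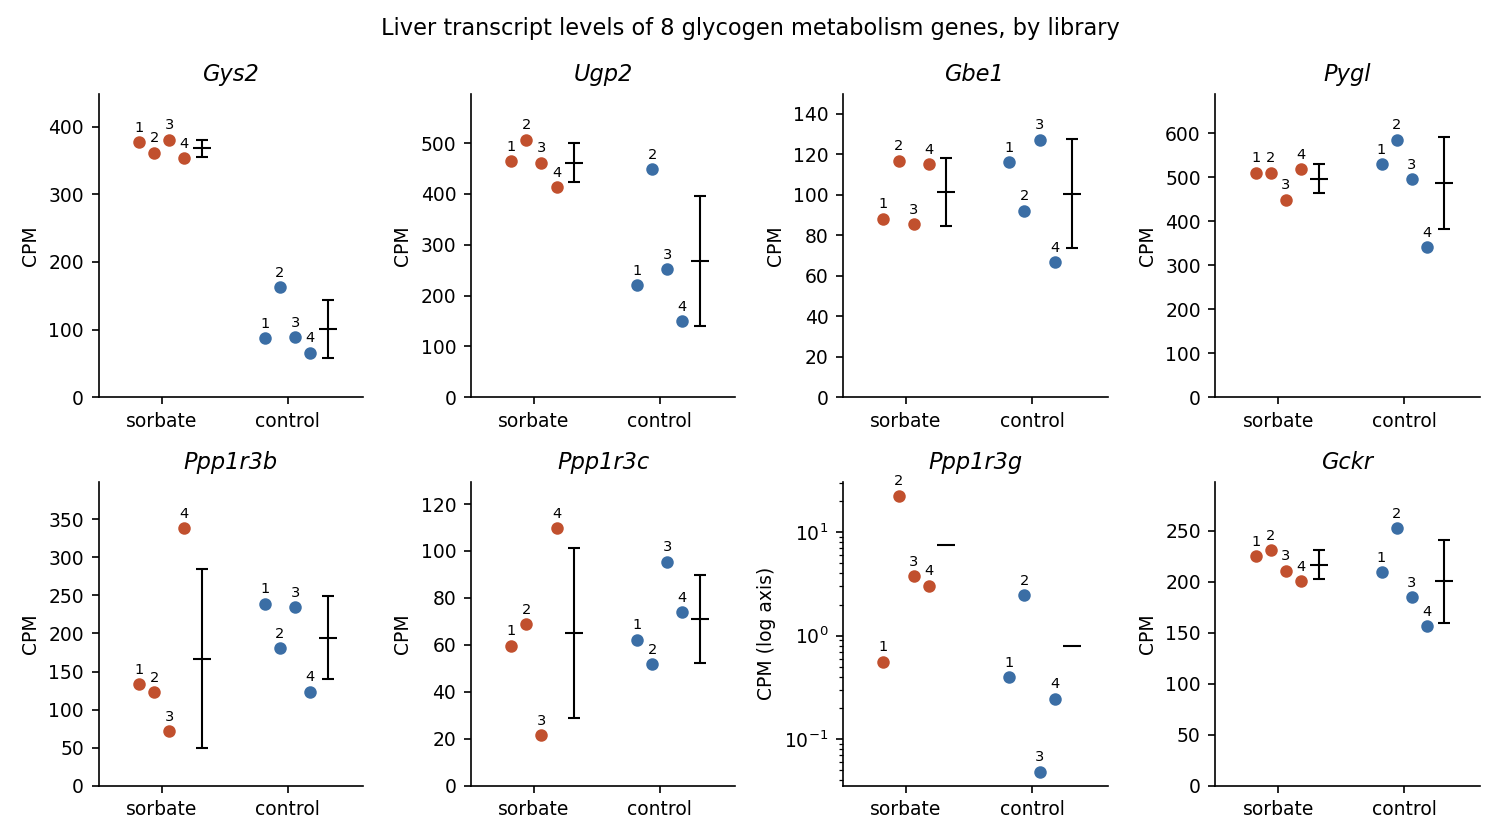
Levels of the 8 genes in CPM in each library, sorbate left of control; numbers are library numbers, and bars are mean ± SD (n = 4; for Ppp1r3g, on a log axis, the mean alone). Gys2 lies at 353 to 380 CPM in the sorbate libraries and at 65.8 to 163 CPM in the controls, and control 2 is the highest control for Gys2, Ugp2, Pygl, Ppp1r3g and Gckr.

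Gys2 (ENSMUSG00000030244, GRCm38 chromosome 6, 142422613 to 142473109) encodes the liver form of glycogen synthase, which lengthens the glucose chains. It stood at 377, 361, 380 and 353 CPM in sorbate libraries 1 to 4, against 86.8, 163, 88.7 and 65.8 CPM in controls 1 to 4. The sorbate libraries were close together and all above every control, and control 2 was the highest control. The means were 368 ± 12.8 CPM with sorbate and 101 ± 42.4 CPM in the controls (SD, n = 4 each). The log2 fold change was 1.87 (SE 0.24, 95% interval 1.34 to 2.39), with an edgeR adjusted p of 0.00178. In absolute size this fold change was above that of 98.6% of the genes tested. Without any 1 library it ran from 1.71 to 2.20 and passed the test each time (highest adjusted p 0.0101). Within the groups, the highest library was 1.08 times the lowest with sorbate and 2.47 times the lowest among controls.

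Ugp2 (chromosome 11, 21321138 to 21371201) encodes UDP-glucose pyrophosphorylase, which makes the UDP-glucose that synthase uses. Its levels were 464, 506, 461 and 413 CPM in sorbate libraries 1 to 4 and 219.9, 448, 251 and 149 CPM in controls 1 to 4. Control 2 lay within the sorbate range, and the other controls lay below it. Mean levels were 461 ± 38.3 CPM with sorbate and 267 ± 128 CPM in controls (SD, n = 4 each), a log2 fold change of 0.79 (SE 0.27, 95% interval 0.18 to 1.39) that did not pass the test (edgeR adjusted p = 0.0834). Without control 2 it was 1.17 and passed (adjusted p = 4.626e-04), and without any other single library it did not. It also passed with no filter on low counts (0.79, adjusted p = 0.0398) and in DESeq2 (0.79, adjusted p = 0.0271). An antisense gene, Gm12043, shares 78 exon bases with Ugp2 and had 0 counts in all 8 libraries.

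Gbe1 (chromosome 16, 70313949 to 70569716) encodes the branching enzyme. It had 88.1, 117, 85.3 and 115 CPM in sorbate libraries 1 to 4 and 116, 92.2, 127 and 66.7 CPM in controls 1 to 4, and the sorbate values lay inside the control range. The log2 fold change of 0.01 (SE 0.20) had a 95% interval of −0.42 to 0.45. The sign of this estimate turned in 5 of the 15 alternative fits, and 0 of them called it.

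Pygl (chromosome 12, 70190811 to 70231488) encodes the liver form of glycogen phosphorylase, which releases glucose units from the chain ends. Pygl was measured at 510, 510, 449 and 518 CPM in sorbate libraries 1 to 4, against 529, 585, 495 and 340 CPM in controls 1 to 4. The sorbate values lay inside the control range. The log2 fold change was 0.03 (SE 0.16), with a 95% interval of −0.33 to 0.39 that does not reach the change of Gys2.

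Because read ratios within a library need no scaling, the synthesis genes were also set against Pygl. Gys2 gave 0.738, 0.709, 0.848 and 0.682 reads per Pygl read in sorbate libraries 1 to 4 and 0.164, 0.278, 0.179 and 0.193 in controls 1 to 4. The sorbate ratio was thus 3.65 times that of controls on average, with control 2 nearest to the sorbate libraries. For Ugp2 the ratio to Pygl was 0.932 ± 0.103 with sorbate and 0.532 ± 0.161 in controls (SD, n = 4 each), where control 2 had 0.766 and the other controls 0.416 to 0.508. Gys2 reads per Ugp2 read were 0.812, 0.714, 0.825 and 0.856 in the sorbate libraries, against 0.395, 0.363, 0.353 and 0.441 in the controls. By this last ratio control 2 lay among the other controls, although its Gys2 and Ugp2 levels were each the highest of the group. Gckr reads per Pygl read were 0.438 ± 0.0361 and 0.415 ± 0.0379 in sorbate and control livers (SD, n = 4 each), and the groups overlapped. These ratios were not tested. They show unequal change within a pair and do not say which gene moved.

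**Figure D2:**
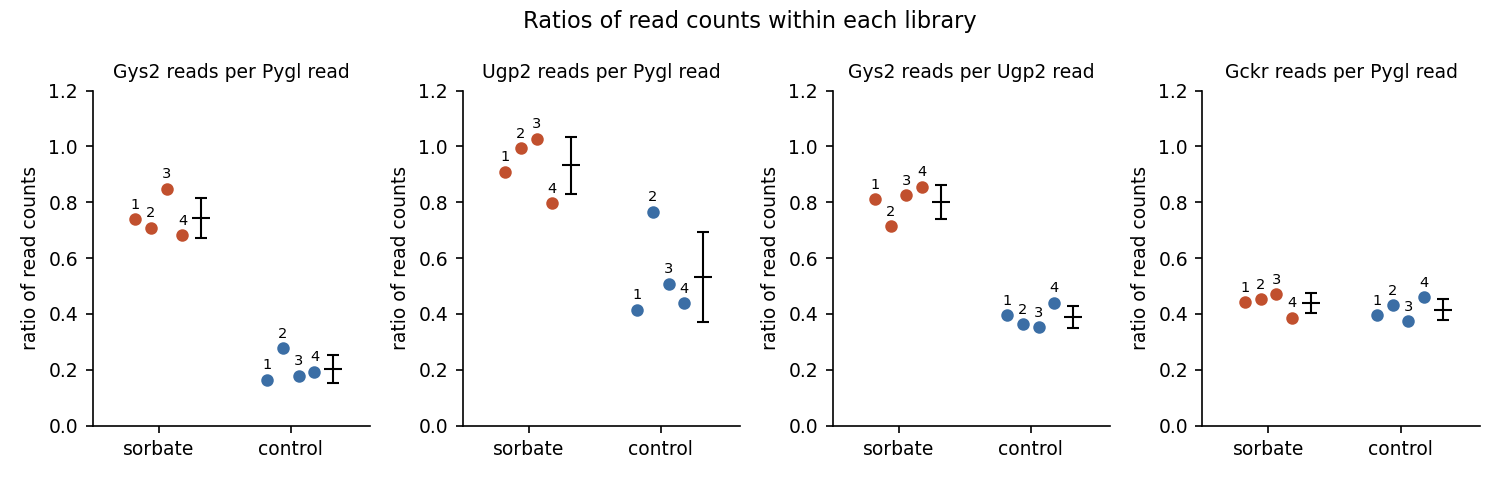
Reads of one gene per read of another within each library, sorbate left of control; numbers are library numbers, bars are mean ± SD (n = 4). The ratio of Gys2 to Pygl is 0.682 to 0.848 with sorbate and 0.164 to 0.278 in controls; Gckr to Pygl overlaps between the groups.

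In the sorbate group, the phosphatase-targeting subunits varied more among libraries than the enzymes did. Ppp1r3b (chromosome 8, 35375739 to 35388139) encodes the subunit known as GL, which is abundant in liver. It stood at 133, 123, 71.4 and 338 CPM in sorbate libraries 1 to 4, against 239, 180, 234 and 124 CPM in controls 1 to 4. Sorbate 4 was above every control, and sorbate 2 and 3 were below every control, so the sorbate group enclosed the control group. The log2 fold change of −0.22 (SE 0.40, 95% interval −1.11 to 0.66) did not pass the test, and it was −0.83 without sorbate 4 (edgeR adjusted p = 0.108) and 0.03 without sorbate 3.

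Ppp1r3c (chromosome 19, 36731731 to 36736653) encodes the subunit also called PTG, or protein targeting to glycogen. Its values were 59.7, 68.9, 21.5 and 110 CPM in sorbate libraries 1 to 4 and 62.2, 51.7, 95.4 and 73.9 CPM in controls 1 to 4. As for Ppp1r3b, sorbate 4 was the highest library and sorbate 3 the lowest. Ppp1r3c had a log2 fold change of −0.13 (SE 0.38, 95% interval −0.96 to 0.71) and did not pass. The estimate was 0.01 under scaling by library size alone, and 0.17 without sorbate 3, so no direction can be given. With sorbate the highest library was 4.74 times the lowest for Ppp1r3b and 5.09 times for Ppp1r3c, against 1.93 and 1.85 times among controls. The spread of the groups was not tested.

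Ppp1r3g (chromosome 13, 35958839 to 35970388), a further targeting subunit that has been described in mouse liver, was the least abundant of the 8. It had 15, 505, 82 and 50 counts in sorbate libraries 1 to 4, against 8, 44, 1 and 5 counts in controls 1 to 4. In CPM this was 0.561, 22.4, 3.75 and 3.04 with sorbate and 0.398, 2.46, 0.0483 and 0.246 in the controls. Sorbate 2 alone held 505 of the 652 counts of its group, and control 2 held 44 of 58. The groups overlapped, since sorbate 1 lay below control 2. The gene passed the low-count filter through the sorbate libraries, so a higher level there was in part required of it. The log2 fold change of 3.30 (SE 1.12, 95% interval 0.83 to 5.77) did not pass the test (edgeR adjusted p = 0.0777). It was 5.04 without control 2, which passed (adjusted p = 0.0107), and 1.66 without sorbate 2, which did not (adjusted p = 0.287).

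Gckr (chromosome 5, 31297443 to 31327314) encodes the glucokinase regulatory protein. It was found at 225, 231, 211 and 201 CPM in sorbate libraries 1 to 4, against 209, 253, 185 and 156 CPM in controls 1 to 4. All sorbate values fell inside the control range. The log2 fold change was 0.11 (SE 0.15, 95% interval −0.21 to 0.43) and did not pass (edgeR adjusted p = 0.646).

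**Figure D3:**
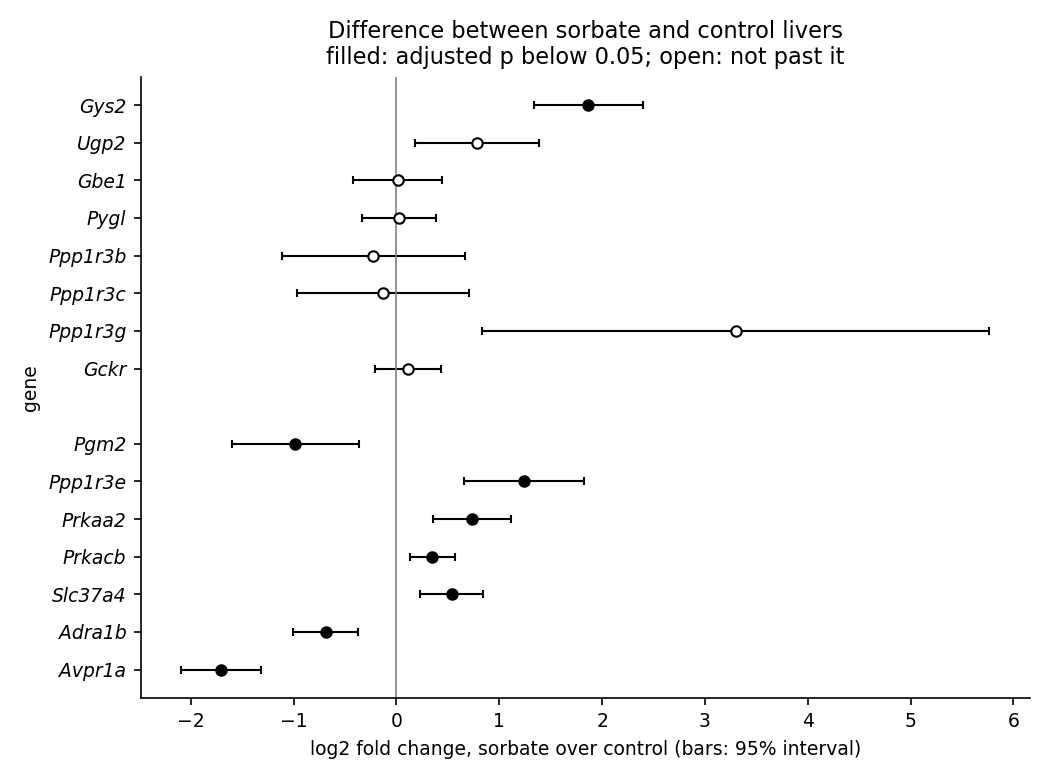
Log2 fold change of sorbate over control for the 8 genes (top) and for 7 other genes of the pathway lists that passed the test (bottom), with 95% intervals from the edgeR fit of 4 against 4 libraries. Gys2, at 1.87, is the only filled point of the upper 8, and the interval of Ppp1r3g is the widest, from 0.83 to 5.77.

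Per kilobase of annotated exon, the order of the levels differed between the groups in the place of Gys2. In sorbate livers the means were 150 ± 12.5 CPM per kilobase for Ugp2, 138 ± 4.81 for Gys2, 72.1 ± 4.68 for Pygl and 50.1 ± 3.2 for Gckr (SD, n = 4). In control livers they were 87.1 ± 41.7 for Ugp2, 70.7 ± 15.2 for Pygl, 46.3 ± 9.40 for Gckr and 38.0 ± 15.9 for Gys2. The remaining genes kept their places, with Ppp1r3b at 26.8 ± 18.9 and 31.3 ± 8.72 in sorbate and control livers, Ppp1r3c at 23.8 ± 13.3 and 26.0 ± 6.88, Gbe1 at 18.9 ± 3.16 and 18.8 ± 5.02, and Ppp1r3g at 2.77 ± 3.75 and 0.292 ± 0.417 CPM per kilobase. With sorbate, the ranges of Gys2 (133 to 143) and Ugp2 (134 to 165) overlapped, while both lay above that of Pygl (65.1 to 75.1), which lay above that of Gckr (46.3 to 53.4). In controls the ranges of Ugp2, Pygl and Gckr overlapped in turn, as did those of Gckr and Gys2. Ppp1r3b, Ppp1r3c and Gbe1 overlapped with each other in both groups, and Ppp1r3b reached into the range of Gckr. Exon lengths are the union of all annotated transcripts, so a gene whose liver transcript is short is placed too low.

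Across the 8 libraries, the profiles most like that of Gys2 belonged to Bhlhe41, Tef and Cnmd. The measure was the root mean square difference between log2 CPM profiles, each centred on its mean, over 12037 other tested genes. Predicted genes, with Gm or Rik names, were left out of this comparison. The difference was 0.14 for Bhlhe41, which encodes a transcriptional repressor of the circadian clock, and 0.16 for Tef, which encodes a clock-output transcription factor. For Cnmd, which encodes chondromodulin, it was 0.17, and the median over the genes compared was 1.06. Bhlhe41 had 8.15, 7.51, 8.83 and 7.61 CPM in sorbate libraries 1 to 4 and 2.09, 3.46, 2.13 and 1.77 CPM in controls 1 to 4. Tef had 237, 194, 240 and 233 CPM with sorbate, against 42.2, 85.0, 53.8 and 43.9 CPM. In each of them control 2 was the highest control, as in Gys2. Among the 8 genes, Pygl and Gckr were closest to each other at 0.12, Ppp1r3b and Ppp1r3c differed by 0.42, and Gys2 was closest to Ugp2 at 0.54. These likenesses are descriptions over 8 libraries that share the difference between the groups.

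Other genes of glycogen turnover and its control were taken from 4 lists of 51 genes, of which 46 were tested, 5 passed as higher and 3 as lower with sorbate. Over all 13312 genes, 12.4% were called in either direction and 6.14% higher, and the counts of each list below stand beside these shares. No list was tested as a set. Of 19 tested genes for other enzymes, subunits and regulators of glycogen, 2 were higher and 1 was lower, with a median log2 fold change of 0.10. Ppp1r3e, a further targeting subunit, had 3.46 ± 0.706 CPM with sorbate and 1.47 ± 0.371 CPM in controls (SD, n = 4 each; log2 fold change 1.24, SE 0.26, edgeR adjusted p = 0.0154). Pgm2, whose product acts mainly on pentose phosphates, was the lower gene, at 2.84 ± 0.626 and 5.61 ± 1.86 CPM in sorbate and control livers (log2 fold change −0.98, adjusted p = 0.0451; control 2 had 2.90 CPM). The call of Ppp1r3e held without any 1 library and that of Pgm2 only without control 2 or sorbate 2. Phosphorylase kinase, which activates phosphorylase, had 4 tested subunit genes (Phka1, Phka2, Phkb and Phkg2) with log2 fold changes of 0.04 to 0.26 and 0 calls. Without control 2, Phka2 had a log2 fold change of 0.55 against 0.26 over all libraries, and passed (edgeR adjusted p = 0.00360).

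Of 13 kinase genes that act on synthase or on phosphorylase kinase, 2 were higher and 0 were lower (median log2 fold change 0.12). Prkaa2, a catalytic subunit of the energy sensor AMPK, had 73.7 ± 11.4 CPM with sorbate and 44.2 ± 10.5 CPM in controls (SD, n = 4 each; log2 fold change 0.74, edgeR adjusted p = 0.0219). Prkacb, a catalytic subunit of protein kinase A, had 38.6 ± 3.54 and 30.2 ± 1.34 CPM in sorbate and control livers (log2 fold change 0.35, adjusted p = 0.0436). The call of Prkaa2 was lost in 5 and that of Prkacb in 6 of the 8 fits that leave out 1 library, with adjusted p up to 0.0747 and 0.123. Without control 2 both were called.

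Of 9 tested genes of hexose transport and phosphorylation, 1 was higher and 0 were lower (median log2 fold change 0.15). Slc37a4, which carries glucose 6-phosphate into the endoplasmic reticulum for release as glucose, had 241 ± 24.4 CPM with sorbate and 166 ± 26.2 CPM in controls (SD, n = 4 each; log2 fold change 0.54, edgeR adjusted p = 0.0306; lost in 6 of 8 leave-outs, adjusted p up to 0.0921). Slc2a2, the main glucose transporter of hepatocytes, is named after its values were seen, because control 2 stood apart in it as in Ugp2. It had 319, 374, 354 and 353 CPM in sorbate libraries 1 to 4, against 142, 319, 153 and 61.1 CPM in controls 1 to 4, and did not pass (log2 fold change 1.05, adjusted p = 0.0891). Without control 2 its log2 fold change was 1.57, which passed (adjusted p = 9.338e-04).

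Of 5 hormone receptors that act on liver glycogen, 0 were higher and 2 were lower (median log2 fold change −0.69). Avpr1a, the vasopressin receptor that drives glycogen breakdown through calcium, had 12.1, 8.45, 11.6 and 10.2 CPM in sorbate libraries 1 to 4, against 36.4, 27.5, 29.5 and 44.8 CPM in controls 1 to 4. The groups did not overlap, and control 2 was the lowest control. Its log2 fold change was −1.70 (SE 0.18, edgeR adjusted p = 7.002e-04). Adra1b, an adrenergic receptor with the same downstream signal, had 30.2 ± 4.67 CPM with sorbate and 48.6 ± 7.08 CPM in controls (SD, n = 4 each; log2 fold change −0.69, adjusted p = 0.0136). Both calls held without any 1 library. The glucagon receptor gene Gcgr, at 232 ± 20.9 and 246 ± 25.4 CPM in sorbate and control livers, and the insulin receptor gene Insr, with a log2 fold change of 0.11, did not pass.

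Leaving out control 2 gave 3 of the 8 genes as higher (Gys2, Ugp2 and Ppp1r3g). In that fit 29.3% of 13559 genes were called in either direction, and 2053 were called higher. Ppp1r3g had 8, 1 and 5 counts in controls 1, 3 and 4, and passed the low-count filter there through the sorbate libraries. Its higher level in that fit was thus in part required of it. The same fit called 10 higher and 7 lower genes of the pathway lists. No fit called any of the 8 genes lower.

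**Figure D4:**
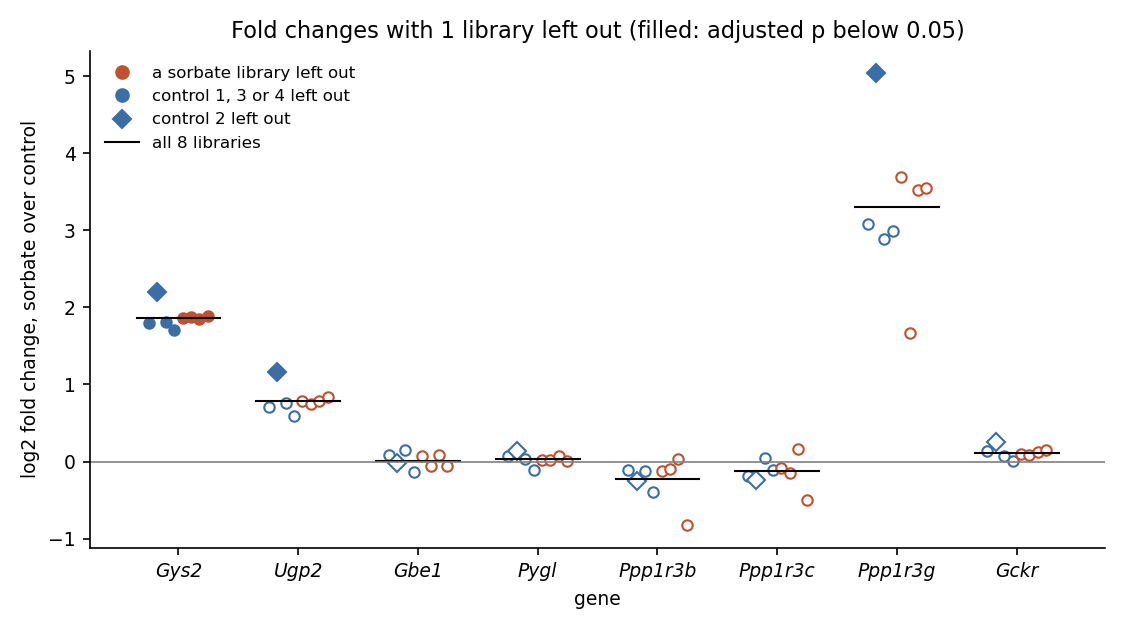
Log2 fold change of sorbate over control for the 8 genes with each library left out in turn; lines give the value over all 8 libraries, diamonds the fit without control 2, and filled symbols an adjusted p below 0.05. Gys2 is filled in all 8 fits, at 1.71 to 2.20, and Ugp2 and Ppp1r3g are filled only without control 2.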

How the data were processed

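Per the submitters' processing notes, the processing named FastQC, Subread, edgeR and HISAT2 2.1.0 with build GRCm38, without their roles. Strand use, settings and annotation release are unstated: not given in the sources used here. The labels describe oligo(dT)-selected TruSeq libraries read as single reads. The deposited table holds raw whole-number counts of reads per gene, and 4 per-sample columns that matched no sample were not used. Counts cannot separate antisense reads if strand was not used.

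Sorbate was compared with control over all 13312 genes kept by filterByExpr (count minimum 10), with TMM scaling and the quasi-likelihood test of edgeR 4.0.16 under R 4.3.3. Tests were two-sided, and p-values were adjusted by Benjamini-Hochberg across every gene tested, with a threshold of 0.05. Standard errors come from the coefficient and its F statistic, and 95% intervals from the test's degrees of freedom. Log2 CPM used a prior count of 2. Lengths and coordinates come from GENCODE vM21 on GRCm38, which held 55227 of the 55487 gene identifiers. Alternatives were DESeq2 1.42.0, DESeq2 size factors, library size alone, no filter, limma-voom 3.58.1 without and with sample weights, a surrogate variable (sva 3.50.0) and each library left out. The edgeR script was tested on simulated data. The genes and lists were chosen with earlier results of these data known. The rule named list genes that passed over all genes and the 3 profiles nearest to each called member; Slc2a2, Gcgr, Insr and the phosphorylase kinase genes were added after their values were seen. Some genes counted in the lists are not reported here by name. Intervals cover the spread between libraries.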

Additional observations from a re-analysis of the deposited data

Results flagged for a closer look

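In each of 16 groups (8 genes in 2 treatments), the highest and the lowest library were checked. A library was flagged if its gap to its neighbour was large for the range of the group. Chance would flag about 1 in 20 groups if CPM were normally distributed, which was not checked. Ppp1r3g in sorbate 2 stood at 22.4 CPM, against 0.561 to 3.75 CPM in the other sorbate libraries. Ppp1r3g in control 2 stood at 2.46 CPM, against 0.0483 to 0.398 CPM in the other controls. Pygl in sorbate 3 stood at 449 CPM, against 510 to 518 CPM in the other sorbate libraries, a gap that is small beside its level.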

How the results depend on the processing

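The call of Gys2 held under all 15 alternatives, with log2 fold changes of 1.51 (1 surrogate variable) to 2.20 (without control 2). Ugp2 passed with no filter on low counts (0.79, adjusted p = 0.0398), in DESeq2 (0.79, adjusted p = 0.0271) and in limma-voom with sample quality weights (1.01, adjusted p = 0.00249), was 0.42 (adjusted p = 0.296) with the surrogate variable, and ran from 0.59 to 1.17 over the leave-outs. Ppp1r3g passed with no filter (3.31, adjusted p = 0.0196) and ran from 1.66 to 5.04 over the leave-outs. Estimates near 0 turned sign: Pygl was −0.0933 and Gckr −0.0427 with the surrogate variable, Gbe1 −0.10 with sample weights, and Ppp1r3c 0.00673 with library size alone and 0.15 with the surrogate variable. Over the leave-outs Pygl ran from −0.11 to 0.14, Gbe1 from −0.14 to 0.15, Ppp1r3b from −0.83 to 0.0313, Ppp1r3c from −0.50 to 0.17 and Gckr from 0.01 to 0.25. The number of the 8 genes called higher was 3 with no filter, 2 in DESeq2 and 2 with sample weights, and 1 to 3 over the leave-outs. Of all genes, 886 of 23605 were called higher with no filter and 1968 of 13312 with sample weights. DESeq2 called 1184 higher of 23605 genes entered, a number that includes any gene it left without an adjusted p. The leave-outs called 332 to 2053 of all genes higher.

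Over all genes, 818 were higher and 838 lower. These counts were 1300 and 550 with library size alone, under which the median gene stood at 0.11 (log2; −0.02 with TMM) and 70.3% of calls were higher (49.4% with TMM), 1968 and 1944 with sample weights, and 313 and 293 with the surrogate variable. Leave-outs gave 332 to 2053 higher and 357 to 1915 lower. The pathway lists gave 10 higher and 7 lower with sample weights, 0 higher with the surrogate variable, and 1 to 10 higher and 2 to 7 lower over the leave-outs. The causes were not tested. No paired analysis was possible because the replicate numbers follow accession order and pair nothing. Depth limits Ppp1r3g, whose controls held 58 counts in all.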
